A study of Danio rerio with 4 samples.

Results

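The genes described here encode secreted signals of the immune system: the CXC chemokines cxcl20 and cxcl18b, the CC chemokine ccl27a, the cytokine il34 and the cytokine subunit ebi3. They were chosen by symbol, with their ratios in these data already known, and are 5 of 9665 named genes on the array. Probes were matched through the platform's annotation or the current RefSeq symbol of their accession. That rule found 5 probes among 20406, and a further probe reached cxcl18b through an older symbol alone, so 4 of the 5 genes rest on a single probe. The genes appear on the platform under older names: cxcl-c5c for cxcl20, cxcl-c1c for cxcl18b, ccl1 for ccl27a and si:ch211-239j19.3 for il34.

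The samples were RNA from whole zebrafish embryos at 28 hours post-fertilization. NHA9 embryos came from crossing the Tg(spi1::lox-eGFP-lox::NHA9) line to the Tg(hsp70::Cre) line. Once Cre has cut out the eGFP cassette, the myeloid spi1 promoter drives NUP98-HOXA9, an oncogenic fusion found in human acute myeloid leukaemia. For lGl embryos that floxed line was instead mated with AB wild types, which leaves the cassette in place and the fusion gene silent. Both kinds of embryo received 1 hour at 37 °C at 24 hours post-fertilization, were held at 28 °C and gave RNA 4 hours after the heat shock. The crosses differed in Cre and in the parental line as well as in the fusion gene, and these effects cannot be told apart. There were 2 RNA extracts of each kind, called biological replicates in the labels without the number of embryos or clutches behind them. Every pair of extracts was put on a forward array (NHA9 in Cy5) and on an array of reversed dyes (dye swap), which gave 4 arrays and n = 2.

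Chemokines are small secreted proteins that steer migrating cells through G-protein-coupled receptors, and the spacing of their first cysteines separates the CXC from the CC group. Cytokines such as Il34 act on receptors of myeloid cells, and Il34 shares the receptor Csf1r with the macrophage growth factor Csf1. At the stage sampled, the embryo holds the first macrophages and neutrophils, which arise from spi1-expressing precursors.

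The values are the authors' deposited log ratios, taken here as log2, so folds hold only if the base is 2. As deposited, a forward array and its dye swap ran the same way (Pearson r across probes of 0.747 for replicate 1 and 0.465 for replicate 2; probes are not independent replicates), so the 4 columns were read as already turned to a single contrast. Arrays sharing only the orientation correlated at 0.449 (forward) and 0.387 (dye swap), little below the pair of replicate 2. Arrays that differed in both replicate and orientation correlated at 0.112 and 0.109. The likely direction is NHA9 over lGl, from the titles and dyes of the forward arrays. The direction is not stated with the values, and if it is lGl over NHA9 every sign below turns. Column medians lay between −0.01 and 0.03. Each array and its dye swap were averaged to 1 replicate. Ratios carry no level in either kind of embryo, so neither the abundance of these transcripts nor the defining markers of the tissue could be read from them.

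In the likely direction, cxcl20 was the highest of the 5 genes in NHA9 embryos, with a log2 ratio of 2.18 ± 0.15 (SD, n = 2), a 4.54-fold difference. il34 stood at 0.61 ± 0.02, with the replicates closer together than for the other 4 genes. ebi3 was lower in NHA9 embryos at −1.50 ± 1.16. ccl27a averaged 1.18 ± 2.02 and cxcl18b 0.20 ± 0.84, because both were positive in replicate 1 and negative in replicate 2. These ratios are given as a description with no test of their own, since the genes were chosen with this contrast known.

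cxcl20 is a CXC chemokine gene. Its log2 ratio was 2.24 on the forward array and 2.34 on the dye swap of replicate 1, and 2.02 and 2.14 on those of replicate 2. All 4 arrays were high and lay close together, and the replicate means of 2.29 and 2.08 differed by 0.21. A higher mean was seen for 26 of the 13261 genes and unnamed probes. That rank is a description only, because the gene was chosen with its ratio known.

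ccl27a is related to mammalian CCL27, a chemokine made by skin keratinocytes. Its ratio was 2.72 on the forward array and 2.51 on the dye swap of replicate 1, but −0.36 and −0.14 on those of replicate 2. The arrays of one pair of extracts were thus alike, while the pairs of extracts lay apart. In replicate 1 alone the difference was 6.13-fold higher in NHA9 embryos. In replicate 2 the mean was −0.25, 1.19-fold lower. The replicates differed by 2.86 on the log2 scale, and only 13 of the 13261 items differed by more.

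cxcl18b encodes a chemokine that recruits neutrophils in infected zebrafish larvae. The probe found by the rule stood at 0.82 (forward) and 0.86 (dye swap) in replicate 1, and at −0.33 and −0.27 in replicate 2. The other probe, matched by an older symbol, stood at 0.82 and 0.69 in replicate 1 and at −0.49 and −0.50 in replicate 2. Both probes showed the same change of sign between the pairs of extracts. Their average was 0.80 in replicate 1 and −0.40 in replicate 2, a difference of 1.19 that 576 of 13261 items exceeded.

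il34 encodes a ligand of Csf1r that, in zebrafish, helps to draw macrophage precursors into the brain. Its ratio was 0.47 on the forward array and 0.78 on the dye swap of replicate 1, and 0.61 and 0.58 on those of replicate 2. All arrays were positive, and the replicate means of 0.62 and 0.59 differed by 0.03. The gap of 0.31 between the arrays of replicate 1 was the widest between 2 arrays of a pair among the 5 genes.

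ebi3 encodes a receptor-like secreted subunit that, in mammals, pairs with other chains to form the interleukins IL-27 and IL-35. Its ratio was −2.38 (forward) and −2.26 (dye swap) in replicate 1, and −0.72 and −0.64 in replicate 2. Every array was negative, and replicate 1 was further below 0. Its replicate means were −2.32 and −0.68, differences of 4.99-fold and 1.60-fold. The mean was exceeded in the negative direction by 25 of 13261 items, likewise a description of a gene chosen with its ratio known.

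**Figure D1:**
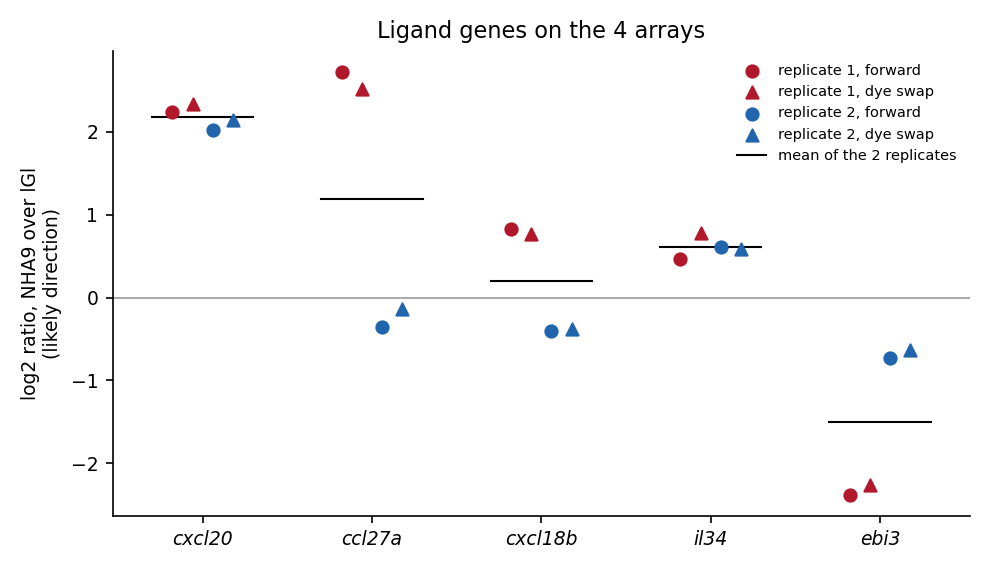
Log2 ratio of NHA9 over lGl (vertical axis, likely direction) for the 5 genes on each of the 4 arrays; circles are forward arrays, triangles dye swaps, colours the 2 replicates and lines the mean of the replicates. cxcl20 and il34 have all 4 arrays close together, ccl27a and cxcl18b change sign between replicates, and ebi3 is negative throughout.

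Set against all features, 3 of the 5 genes passed an adjusted p of 0.05 in the limma test of their replicate mean against 0, run over 13261 items, cxcl20 and ccl27a higher and ebi3 lower. The share over all items was 2.84% (2.04% higher, 0.792% lower). Nothing is read from that comparison, because the contrast entered the choice of the genes. limma pooled the spread over all genes to an SD of 0.43, so each mean had a standard error of 0.30 whatever its own replicates did, and ccl27a passed in spite of opposite signs in the replicates. Of all 376 calls, 28 lacked one sign on the 4 arrays. By a rule of 2-fold or more in size and the same sign on the 4 arrays, met by 2.34% of items, cxcl20 and ebi3 were past it and the other 3 were not. il34, ebi3 and cxcl20 kept one sign on all arrays, as 32.6% of items did. With the replicate as a random block and no orientation term, and likewise with the arrays scaled to equal spread, cxcl20 was the only one of the 5 to pass. Of all 13261 items, 114 passed with that block and 174 after the scaling. With that block and an orientation term, cxcl20 and ebi3 passed and ccl27a did not, while 248 of all items passed.

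The replicates separated the genes into 2 patterns, il34 and cxcl20 with near-equal values and ccl27a, cxcl18b and ebi3 with the value larger in size in replicate 1. Over all items the median size of the replicate difference was 0.39. The differences of il34 and cxcl20 were below it in size, and those of cxcl18b, ebi3 (−1.64, replicate 1 minus replicate 2) and ccl27a above it. Opposite signs on the pairs of arrays of the replicates, as for ccl27a and cxcl18b, were seen in 22.5% of items.

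**Figure D2:**
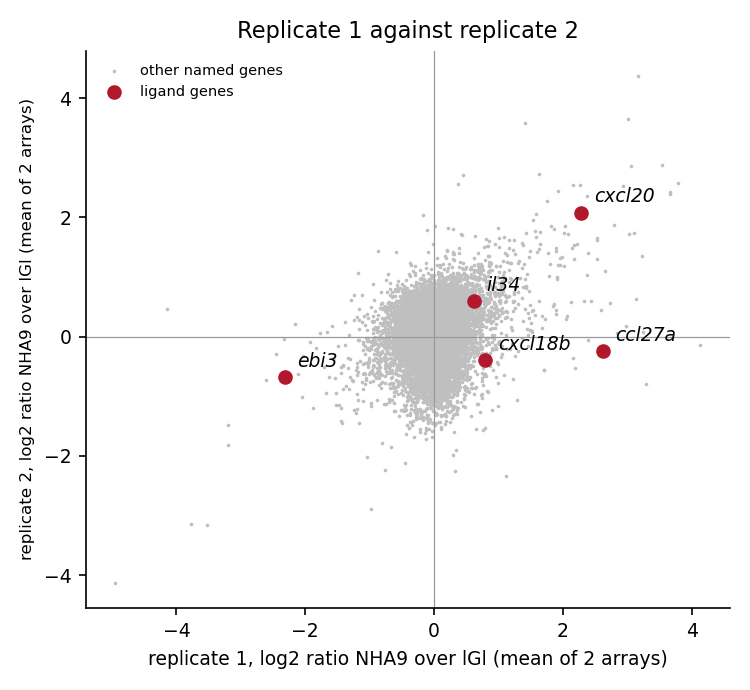
Log2 ratio of NHA9 over lGl in replicate 1 (horizontal) against replicate 2 (vertical), each the mean of a forward array and its dye swap, for all 9665 named genes in grey with the 5 ligand genes in red. cxcl20 and il34 lie where both replicates are alike, ebi3 has both values negative, and ccl27a and cxcl18b lie right of 0 in replicate 1 and below 0 in replicate 2.

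The difference between orientations is a measure apart from the mean, and it was tested in a fit with mean, replicate and orientation terms. Forward minus dye swap was −0.11 ± 0.17 for cxcl20 (SE), −0.00 ± 0.18 for ccl27a, 0.01 ± 0.17 for cxcl18b, −0.14 ± 0.18 for il34 and −0.10 ± 0.17 for ebi3. None of the 5 passed (limma adjusted p from 0.601 for il34 to 0.99 for ccl27a), while 15.0% of all items did. With a reading by dye, in which the dye-swap columns are turned, the ratio comes from this difference alone, and all 5 genes then lie between −0.07 and 0.01. The direction and the size of every ratio above therefore hold only for the chosen reading. In the chosen reading an effect of dye cancels from the mean over both orientations and appears in this difference. In the reading by dye, the value that the 4 arrays of cxcl20 or il34 share would instead be a dye effect, and the files do not state which reading holds. For ccl27a and cxcl18b, the sign differed between replicates of the same orientation.

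Other ligands of the same families give the setting. Among the 9 other chemokine genes measured, 1 passed as higher, 8 did not pass and none was lower. That gene was ccl34a.4, a CC chemokine gene, at 1.12 ± 0.73 (SD, n = 2; limma adjusted p = 0.0105). It stood at 1.83 and 1.44 on the arrays of replicate 1 and at 0.90 and 0.31 on those of replicate 2, positive throughout. With the replicate as a random block and no orientation term its adjusted p was 0.186, and after scaling the arrays to equal spread it was 0.101. With that block and an orientation term it was 0.0458. With dye swaps alone ccl34a.4 did not pass (limma adjusted p = 0.0918), and with forward arrays alone it did (0.00151). The lowest was ccl44 at −0.22 ± 0.33 (adjusted p = 0.928). The median over the 9 genes was 0.26, against 0.02 over all items, with 0.02 in replicate 1 and 0.52 in replicate 2, and 3 of the 9 were positive on all arrays.

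The other cytokine ligands showed no call in limma. Of 7, 3 had positive and 4 negative means, with a median of 0.00. The range ran from −0.88 for kitlgb, which encodes a Kit ligand, to 0.43 for csf3, which encodes a granulocyte growth factor. kitlgb stood at −0.19 and −0.10 in replicate 1 and at −1.86 and −1.36 in replicate 2, so replicate 2 held most of its difference.

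**Figure D3:**
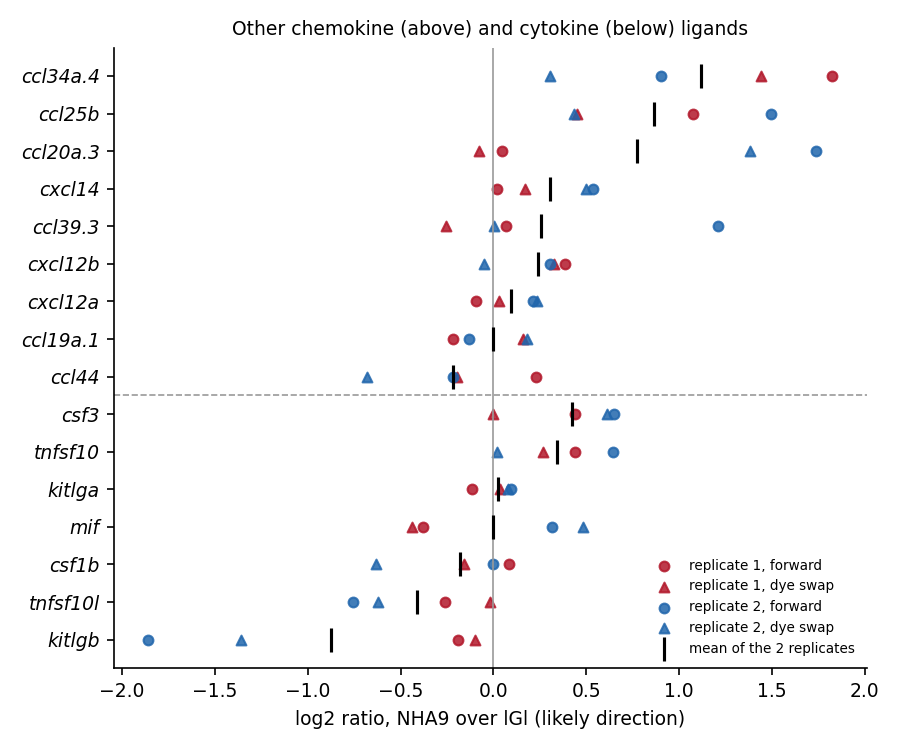
Log2 ratio of NHA9 over lGl (horizontal axis, likely direction) on each array for the 9 other chemokine genes (above the dashed line) and 7 other cytokine ligand genes (below it), with a bar at the mean of the replicates. ccl34a.4 has all 4 arrays above 0 and the highest mean, 1.12, and kitlgb has the lowest, −0.88.

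Receptors and known partners were covered thinly. Csf1r, the receptor of Il34, had no named probe among the genes analysed here. The other ligand of Csf1r on the array, csf1b, stood at −0.18 ± 0.20 (adjusted p = 0.946). ptprz1b, related to a mammalian alternative receptor for IL-34, stood at −0.06 ± 0.02 (adjusted p = 0.983). stat3, a transcription factor downstream of many cytokine receptors, stood at 0.32 ± 0.10 (adjusted p = 0.838), positive on all arrays.

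None of the 4 chemokine receptor genes passed. cxcr3.2, a receptor of macrophages in zebrafish, was highest at 0.65 ± 0.19 (adjusted p = 0.377), with 0.85 and 0.72 on the arrays of replicate 1 and 0.71 and 0.33 on those of replicate 2. cxcr4a, a receptor for Cxcl12, was lowest at −0.15 ± 0.45. Of 17 cytokine receptor genes none passed, with a median of 0.06 and a range from −0.27 for il17rd to 0.77 for il4r.1. Of 17 genes of JAK kinases, STAT factors and their inhibitors none passed, with a median of 0.05 and a lowest value of −0.57 for pias4a. Of 15 genes of the NF-kB and toll-like receptor pathways none passed, with a median of 0.05, the highest value 0.74 for relb, an NF-kB subunit gene, and the lowest −0.80 for irak1bp1. At an unadjusted p under 0.05 in limma there were 3 of the 9 other chemokine genes, 1 of 4 chemokine receptor genes, 1 of the 7 other cytokine ligands, 4 of 17 cytokine receptors, 0 of 17 JAK and STAT pathway genes and 2 of 15 NF-kB pathway genes, against 1384 of all 13261 items. In these 6 families together, leaving out the 5 ligand genes, 1 of 69 genes passed.

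Markers of cell types that whole embryos hold were read on the same arrays. Of 11 macrophage and pan-leukocyte markers 10 had positive means and 2 passed as higher, and the list medians were 0.56 over both replicates, 0.63 in replicate 1 and 0.55 in replicate 2. The called genes were mpeg1.1, whose product resembles perforin, at 1.08 ± 0.17 (limma adjusted p = 0.0158) and slc7a7, which encodes an amino acid transporter, at 1.16 ± 0.75 (adjusted p = 0.0064). cyba was the lowest of this list at −0.003 ± 0.29. Of 7 neutrophil markers 6 had positive means and 3 passed as higher. These were mpx at 1.04 ± 0.31, lyz at 1.16 ± 0.24 and mmp13a at 1.18 ± 0.94. The lowest was cebp1 at −0.71 ± 0.44 (adjusted p = 0.28). lyz was larger on the forward arrays (1.71 and 1.95) than on the dye swaps (0.94 and 0.03). With dye swaps alone lyz and slc7a7 did not pass (limma adjusted p = 0.559 and 0.244), while mpx, mmp13a and mpeg1.1 did. With forward arrays alone mpx did not (0.0559), while lyz, mmp13a, slc7a7 and mpeg1.1 did. Over all items 2.84% passed and 6957 of 13261 had positive means, but the marker lists were chosen with earlier results known. The neutrophil list had a median of 0.92, higher in replicate 1 (1.24) than in replicate 2 (0.51). At an unadjusted p under 0.05 in limma there were 5 of the 11 macrophage and 5 of the 7 neutrophil markers, against 1384 of all 13261 items. The part of these cells in the ligand ratios was not tested. In whole embryos, more cells of a type and more RNA per cell cannot be told apart.

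Of 22 epidermal markers 11 had positive means and 1 passed as higher (also 1 at an unadjusted p under 0.05), the cadherin gene cdh1, at 1.03 ± 0.24 (adjusted p = 0.0257). With forward arrays alone cdh1 did not pass (limma adjusted p = 0.166), and with dye swaps alone it did (0.00208). The lowest epidermal marker was tp63 at −0.53 ± 0.36 (limma adjusted p = 0.56). The epidermal median was 0.01, with −0.22 in replicate 1 and 0.22 in replicate 2. In limma, 6 of the 22 passed the orientation test, against 15.0% of all items. Of 10 erythroid markers 9 had positive means and none passed (4 at an unadjusted p under 0.05 in limma). One sign on all arrays was kept by 4 of the 10, beside 32.6% of all items. The limma orientation test was passed by 4 of the 10, against 15.0% of all items. The erythroid medians were 0.38 over both replicates, 0.68 in replicate 1 and 0.15 in replicate 2. The means ranged from −0.72 ± 0.16 for hbae3 to 0.86 ± 0.55 for epb41b. On the forward arrays hbae3 stood at −0.14 and 0.59, and on the dye swaps at −1.53 and −1.81. With the replicate as a random block and no orientation term, none of these marker calls passed (adjusted p from 0.0761 for mpeg1.1 to 0.404 for lyz). After scaling the arrays to equal spread none did either (0.0649 for lyz to 0.0997 for mmp13a). With that block and an orientation term only mpeg1.1 passed (limma adjusted p = 0.0406).

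**Figure D4:**
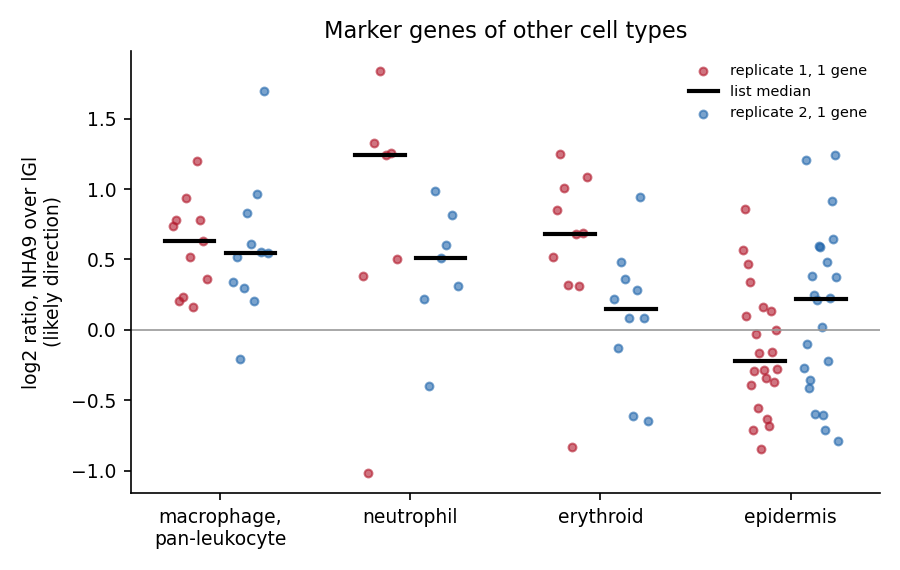
Log2 ratio of NHA9 over lGl (vertical axis, likely direction) for marker genes of 4 cell types, a point per gene and replicate, with bars at the list medians. The macrophage medians are 0.63 and 0.55 in replicates 1 and 2, and the neutrophil medians 1.24 and 0.51.

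The genes with the most similar values over the 4 arrays were found by Euclidean distance on the log2 scale among 9660 named genes. For cxcl20 they were ms4a17a.11 (distance 0.51), swi5 (0.61) and isy1 (0.61), and for ebi3 xpo7 (0.34), ahsa1a (0.42) and slc25a14 (0.53). For ccl27a they were sppl2 (0.46), nccrp1 (0.78) and ctbs (0.82). For cxcl18b, mb (0.23), nog1 (0.23) and r3hdm4 (0.26) were nearest, and for il34 cdc42se1 (0.09), ppp1r3b (0.09) and stam (0.18). Among the 5 genes themselves the smallest distance was 1.44, between cxcl18b and il34. It is the least over few pairs, whereas the distances above are the least over 9660 genes, so they cannot be compared.

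The nearest measured genes on either side, by the order of RefSeq genes in assembly GRCz12tu, were set beside the ligand genes. Beside ccl27a, avp, the vasopressin precursor gene, was higher at 1.60 ± 0.59 (limma adjusted p = 1.25e-05), and positive in both replicates, unlike ccl27a. In replicate 1 avp stood at 1.89 and 2.15, against 2.72 and 2.51 for ccl27a. Beside ebi3, gbp1, named for guanylate-binding proteins, was higher at 1.45 ± 0.11 (adjusted p = 0.000134), opposite to ebi3. With the replicate as a random block and no orientation term neither passed (limma adjusted p = 0.0571 for avp and 0.103 for gbp1). With that block and an orientation term both passed (0.00174 and 0.00451). After scaling the arrays to equal spread both passed as well (0.0198 and 0.0141). The neighbours of il34, lonp2 and sf3b3, stood at 0.35 ± 0.16 and 0.48 ± 0.74 (SD, n = 2), against 0.61 for il34. Like il34, lonp2 was positive on all arrays. sf3b3 stood at −0.086 and 0.009 on the arrays of replicate 1, so its positive mean came from replicate 2. Neither these neighbours nor il34 passed the threshold. The neighbours of cxcl20, flot2a and grsf1, stood at 0.38 and −0.31 and did not pass. Those of cxcl18b, neurl1aa and caly, stood at 0.03 and −0.75, and the further neighbours odf3l2a (ebi3) and znf367 (ccl27a) at 0.12 and 0.06. The neighbours were taken by position after the ratios of the 5 genes were known.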

How the data were processed

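Per the labels' protocols, Trizol and RNeasy kits gave the RNA, Alexa Fluor dyes were built into the cDNA, and RNA-poor samples, not named, were amplified. The authors deposited 1 log ratio per probe and array, taken as log2. Log base, direction, scanner, background correction, normalization and probe filter were not stated in the sources used here. Without spot intensities, not used here, signal over background is unknown; the number of arrays limits the precision.

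Probes were named by RefSeq accession (14620), current symbol (1676), synonym (506) or the platform's own symbol (8), and 3596 stayed unnamed. Probes of a gene were averaged. The mean of 2 replicates was tested against 0 with limma 3.58.1 in R 4.3.3 with Benjamini-Hochberg adjustment over 13261 items and a threshold of 0.05. The p-values of the replicate means rest on the spread between the 2 pairs of extracts, pooled over all items to an SD of 0.425. They do not measure the spread of a single gene. The orientation and random-block fits were run on the 4 arrays, so their p-values rest on other spreads. The replicate numbers pair the extracts by the labels. The fit of the replicate mean was run on simulated ratios with the same spread for every item. That setting cannot show how the fit behaves where the spread differs between genes. The random-block and orientation fits were not simulated. The random-block fit with an orientation term used a moment estimate of the correlation. Genes named were the 5 ligand genes, called genes and the highest and lowest gene of each list, measured receptors and partners, and the nearest 3 genes by distance; csf3, kitlgb and the neighbours were added after their values were seen. The 5 genes and all lists were chosen with earlier results of these data known. Alternatives were the reading by dye, replicate blocks, scaling, quantile normalization, single probes, each orientation alone and each replicate left out.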

Additional observations from a re-analysis of the deposited data

Results flagged for a closer look

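In the limma test of the orientation term, 19 of the 119 other genes of the related lists passed, beside 15.0% of all items. None of the 5 ligand genes did, and with so few genes at that share nothing is read from it. Of the 19, the 6 given here are those named among the results, as forward minus dye swap on the log2 scale. They were slc7a7 at 0.90, lyz at 1.34, cebp1 at −0.91, tp63 at −0.74, irak1bp1 at 0.59 and hbae3 at 1.90. gbp1, the neighbour of ebi3, also differed, at 0.73. ptprz1b had both forward arrays negative and both dye swaps positive, a difference of −0.31 that did not pass (adjusted p = 0.224).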

How the results depend on the processing

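The count over all items was 376 as reported and 1984 with the reading by dye, 114 with a random replicate block and no orientation term, 248 with that block and an orientation term, 174 after scaling the arrays to equal spread and 617 on the forward arrays only. It was 444 after quantile normalization, 507 of 20406 with each probe apart and 508 with dye swaps alone (260 higher, 248 lower). Of the 5 ligand genes, 3 passed as reported, 0 by dye, 1 with the block and no orientation term and 1 after scaling, cxcl20 in both. By dye cxcl20 was at −0.057 and ccl27a at −0.002, and ccl27a was at −0.247 without replicate 1 and 2.616 without replicate 2. Turned by dye, irak1bp1 was at 0.29, mpx at −0.064, mmp13a at −0.10, cdh1 at −0.24, avp at −0.24 and hbae3 at 0.95. Related genes passing numbered 1 of 69 as reported, 6 by dye, 0 with the block and no orientation term, 0 after scaling, 2 with each probe apart and 3 with forward arrays alone. Orientation calls come from the same test as the reading by dye, so their 1984 is the same result given again. They numbered 4751 after scaling and 3768 after quantile normalization, where 1 of the 5 ligand genes passed. Items past 2-fold in size that kept their sign across arrays numbered 310, and from 543 to 756 with a replicate left out. Why the settings differ was not tested. Leaving out a replicate leaves no test, and signal over background could not be examined.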
